A study of Homo sapiens with 11 samples.

Results

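Death receptors are cell surface proteins of the tumour necrosis factor (TNF) receptor superfamily. 10 genes of this system were followed: the 4 receptors of the ligand TRAIL (TNFRSF10A, TNFRSF10B, TNFRSF10C and TNFRSF10D), the Fas receptor (FAS), the TNF receptor TNFRSF1A, the TWEAK receptor TNFRSF12A, and the cytoplasmic proteins FADD, CASP8 and CFLAR. They were chosen by name, as the rows of the deposited gene count tables that carry these symbols, and they make up 10 of the 23228 genes in the tables. All 10 were among the 16530 genes that had enough reads to be tested; TNFRSF10C was the lowest of them, at 18 to 122 reads per library.

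The study exposed 2 established human cancer cell lines, the basal-type breast cancer line MDA-MB231 and the osteosarcoma line U2OS, to 4 drugs for 8 h and sequenced their total RNA. The doses were 1 µM doxorubicin, 20 µM etoposide, 0.2 µM paclitaxel and 40 µg/mL methyl methanesulfonate (MMS), which the series gives as inhibitory doses from a longer exposure, and the controls received DMSO, the solvent. Doxorubicin intercalates into DNA and, like etoposide, traps topoisomerase II on it, MMS alkylates bases, and paclitaxel stabilises microtubules. Both lines were grown in DMEM with serum and no allele or transgene is named for any group. There was 1 library per line and drug and 1 U2OS DMSO library. MDA-MB231 had 2 DMSO libraries: replicate 1 belongs with the MDA-MB231 doxorubicin, etoposide and paclitaxel libraries, and replicate 2 carries an 8 h time in its title, as only the MDA-MB231 MMS library does. Another label of replicate 2 calls it untreated, although its treatment is given as DMSO.

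The 11 libraries held 16774156 to 31588683 reads assigned to genes. Reads aligned to several places made up 28.4% to 37.5% of the records counted, highest within each line in the doxorubicin library (34.4% in MDA-MB231 and 37.5% in U2OS), and their part in the results below was not tested. The 2 MDA-MB231 DMSO libraries were compared over the 10841 genes with at least 5 CPM (read counts scaled by library size) in either. The median absolute difference per gene was 0.18 on the log2 scale, and 95% of these genes differed by less than 0.67. Presence of the listed marker genes did not tell the lines apart, as 1 CPM is a low bar. All 6 markers listed for MDA-MB231 reached it in both lines, and of the 6 osteosarcoma markers 6 did in U2OS and 5 in MDA-MB231. By highest level in U2OS and MDA-MB231, ALPL (12.9 and 0.28 CPM) and EGFR (112 and 517) differed as listed. CDH11 (26 and 371), RUNX2 (23.9 and 37.6) and KRT18 (409 and 246) went against their list, and VIM (2679 and 2649) was alike. The luminal breast receptors ESR1 and PGR stayed at or below 0.611 CPM, and the leukocyte marker PTPRC at or below 0.559. Other members of these lists were higher. Of the luminal list, EPCAM reached 20.9 CPM and GATA3 8.16 in MDA-MB231, and FOXA1 10.1 in U2OS. Of the blood and immune list, CD68 reached 221 CPM in MDA-MB231 and 50.1 in U2OS, and CD14 14.1 and 2.13.

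As background, a death receptor carries a cytoplasmic death domain. When a trimeric ligand such as TRAIL or Fas ligand clusters it, the adaptor FADD binds and recruits procaspase 8, the product of CASP8, whose copies then cut and activate one another. The product of CFLAR, c-FLIP, resembles caspase 8 but lacks its activity and takes its place in the complex. TNFRSF10C and TNFRSF10D also bind TRAIL but have no death domain, or a truncated one, and are called decoy receptors. TNFRSF1A mostly signals through NF-kB and reaches FADD by a second complex, while TNFRSF12A, also called Fn14, has no death domain and binds TRAF adaptors.

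The largest falls among the 10 genes, described below, were those of TNFRSF1A and FADD after doxorubicin. The 250 bases before their RefSeq starts (GRCh38.p14) are printed so that 2 genes that fell together can be set side by side. 5 of the 10 genes had windows in the RefSeq promoter table, 12 windows in all: 1 each for TNFRSF1A and FADD, 3 each for FAS and CASP8, and 4 for CFLAR. TNFRSF10A, TNFRSF10B, TNFRSF10C, TNFRSF10D and TNFRSF12A had none. Capitals mark matches, on either strand, to the GC box GGGCGG, the CCAAT box CCAAT, the TATA box TATAAA, the NRF1 core GCATGCGC, the ETS core CCGGAA and the AP-1 site TGACTCA.
TNFRSF1A, chr12:6342077-6342326, minus strand: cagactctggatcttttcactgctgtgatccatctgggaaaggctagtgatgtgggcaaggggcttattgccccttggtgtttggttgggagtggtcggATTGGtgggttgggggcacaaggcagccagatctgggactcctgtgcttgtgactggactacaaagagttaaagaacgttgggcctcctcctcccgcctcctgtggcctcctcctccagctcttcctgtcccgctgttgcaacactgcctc
FADD, chr11:70203046-70203295, plus strand: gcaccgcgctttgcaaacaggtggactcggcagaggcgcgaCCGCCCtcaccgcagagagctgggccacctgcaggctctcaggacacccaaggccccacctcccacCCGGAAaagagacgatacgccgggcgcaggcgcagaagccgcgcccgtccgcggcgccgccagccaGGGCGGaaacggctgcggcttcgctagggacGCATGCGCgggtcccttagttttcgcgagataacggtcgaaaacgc
The TNFRSF1A window held 1 CCAAT box, found in 32% of the 35116 windows in the table, 4 CpG sites and 56.8% G and C, against a median of 11 CpG sites and 58% over all windows. The FADD window held 2 GC boxes, 1 NRF1 core, 1 ETS core, 32 CpG sites and 68.8% G and C. GC boxes were in 42.6% of all windows, the ETS core in 14.5% and the NRF1 core in 2.63%. Neither window held a TATA box (10.7% of all windows) or an AP-1 site (4.2%), and the 2 windows had no motif in common. These matches describe letters only, and no binding was measured.

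Without drug, TNFRSF12A had the highest level per length of the 10 genes in both lines, at 178 CPM per kb of exon in U2OS and 106 and 116 in the 2 MDA-MB231 DMSO libraries. In U2OS it was followed by TNFRSF1A (57), TNFRSF10B (44.8), FADD (32.9), FAS (15.6) and CASP8 (9.23), with TNFRSF10D (2.33), TNFRSF10A (1.6) and TNFRSF10C (1.01) lowest, and 1 library gives no spread for this order. In MDA-MB231 the order was TNFRSF10B (60.7 and 67.6), FADD (45.8 and 49.7), TNFRSF1A (36 and 37.1), TNFRSF10D (32.7 and 34.9), TNFRSF10A (15.7 and 18.2), CASP8 (6.79 and 7.08), FAS (2.43 and 3.07) and TNFRSF10C (0.987 and 1.9). Neighbours in that order did not overlap between the 2 DMSO libraries, but the gap between TNFRSF1A and TNFRSF10D was smaller than that between the 2 values of TNFRSF10D, and the gap between FAS and TNFRSF10C smaller than that between the 2 values of either. CFLAR is left out of the order, because its annotated exons add up to 20.6 kb, far more than a single transcript, which lowers its value per kb. The plot of levels by library shows every value as TMM-scaled CPM.

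**Figure D1:**
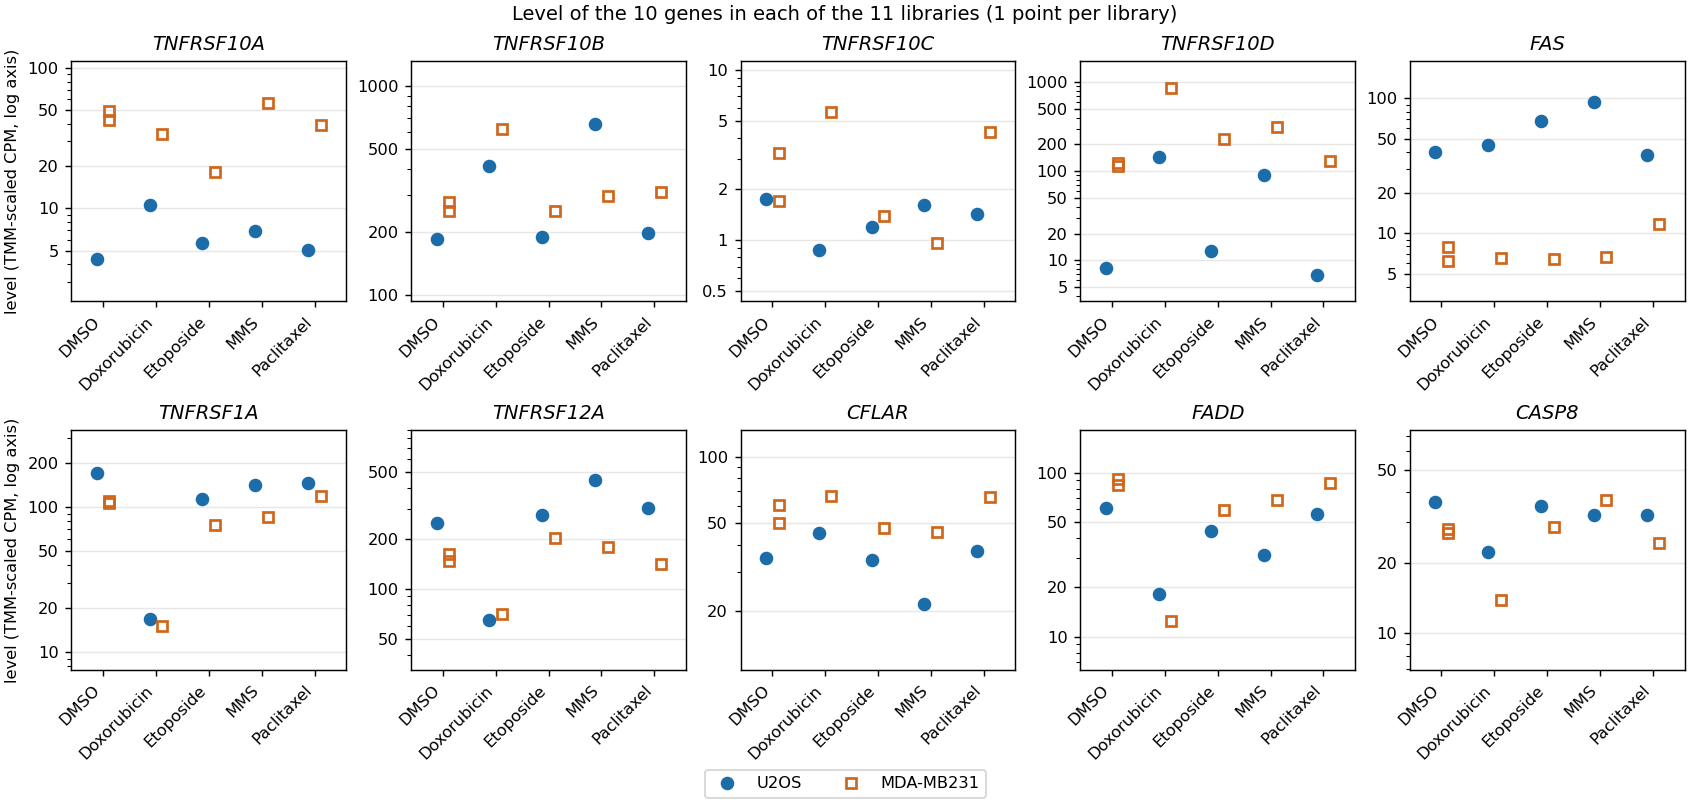
Level of each of the 10 genes (TMM-scaled CPM, log axis with its own range per gene) under DMSO and the 4 drugs, 1 point per library, with U2OS as filled circles and MDA-MB231 as open squares. The doxorubicin libraries of both lines are lowest for TNFRSF1A, TNFRSF12A, FADD and CASP8 and highest in their line for TNFRSF10D.

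The first question was which of these genes each drug changed over both lines. A change was called at an adjusted p under 0.05 over all 16530 genes, from edgeR's quasi-likelihood test with Benjamini-Hochberg adjustment, written below as edgeR adjusted p. Doxorubicin gave 6 calls among the 10 genes, TNFRSF10B and TNFRSF10D higher and TNFRSF1A, TNFRSF12A, FADD and CASP8 lower. It also called 41.7% of all genes tested, so a count of 6 of 10 was not far from what the whole table gave. MMS called 2 of 10, TNFRSF10B and TNFRSF10D, both higher, against 10.1% of all genes. Etoposide called 1 of 10, TNFRSF1A, which was lower, against 16.6% of all genes. Paclitaxel called none of the 10 and no other gene (0%), although 110 genes had an unadjusted p under 0.05 in edgeR and 95 in DESeq2, which called 0 as well. The median log2 fold change over the 10 genes was 0.04 after doxorubicin, -0.21 after etoposide, 0.11 after MMS and 0.01 after paclitaxel, beside 0.09, 0.03, -0.03 and 0.01 over all genes. The 4 drugs share their DMSO libraries, so their values are given side by side and not as separate evidence. Each drug has 2 libraries, 1 per line, and the labels do not tie libraries to separate cultures beyond that. The p-values therefore measure only how far the drug changes differed between the 2 lines. That spread may be technical or may hold true differences in response, which this design cannot separate.

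**Figure D2:**
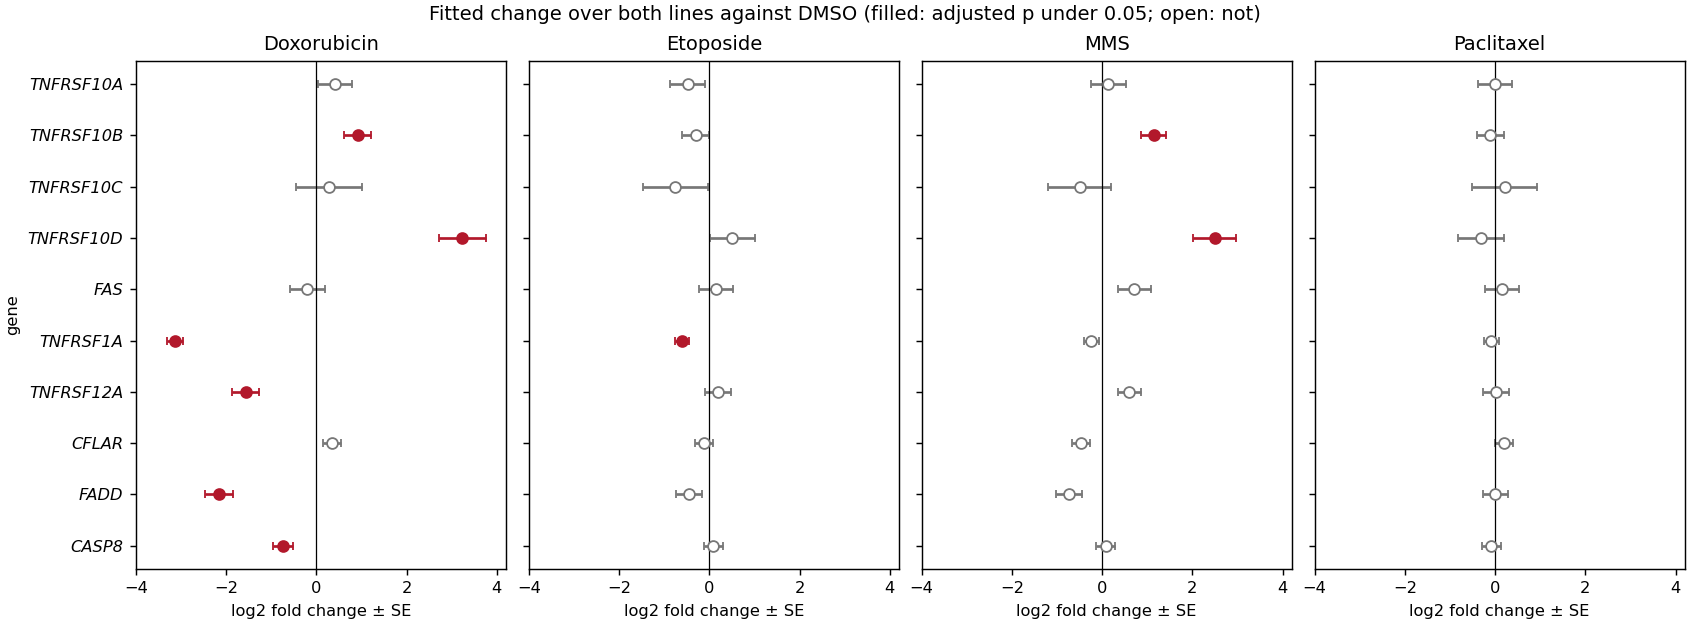
Fitted log2 fold change (x axis) ± SE against DMSO over both lines for each of the 10 genes (y axis), 1 panel per drug, with filled red points for an edgeR adjusted p under 0.05 and open grey points otherwise. Doxorubicin has 6 filled points, MMS 2, etoposide 1 and paclitaxel 0.

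TNFRSF10B encodes the TRAIL receptor DR5, which carries a death domain. Its level in U2OS was 186 CPM with DMSO, 413 with doxorubicin, 659 with MMS, 189 with etoposide and 197 with paclitaxel. In MDA-MB231 it was 280 and 252 with DMSO, 624 with doxorubicin, 299 with MMS, 251 with etoposide and 312 with paclitaxel. Both doxorubicin libraries thus lay above every DMSO, etoposide and paclitaxel library of either line, while the MMS library was high in U2OS and near the controls in MDA-MB231. TNFRSF10B rose after doxorubicin by 0.92 ± 0.30 on the log2 scale (SE, 1 library in each of 2 lines; edgeR adjusted p = 0.0349) and after MMS by 1.14 ± 0.28 (edgeR adjusted p = 0.0364), higher in 2 of 2 lines with each drug. The values after etoposide, -0.30 ± 0.30, and paclitaxel, -0.11 ± 0.30, did not pass the test. The fit also uses the libraries of the other drugs, so a fitted value need not lie between the ratios of the 2 lines. Each level is a mean over the cells that went into a library, and a change in every cell cannot be told apart from a larger change in some of them. The MMS call rested on the U2OS library, without which the value was 0.25 (edgeR adjusted p = 0.831), and it was lost, at edgeR adjusted p of 0.0577 to 0.161, without any 1 of the U2OS DMSO, doxorubicin, etoposide and paclitaxel libraries or the MDA-MB231 DMSO replicate 1, doxorubicin, etoposide and paclitaxel libraries. The doxorubicin call was lost without MDA-MB231 DMSO replicate 1 (0.72), MDA-MB231 doxorubicin (0.76), U2OS DMSO (0.66), U2OS doxorubicin (1.09), or either etoposide library (0.92 each, edgeR adjusted p = 0.0545), and with no filter on low counts (0.85, edgeR adjusted p = 0.068).

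TNFRSF10A encodes DR4, the other TRAIL receptor with a death domain. In U2OS it was at 4.36 CPM with DMSO, 10.6 with doxorubicin, 6.87 with MMS, 5.71 with etoposide and 5.04 with paclitaxel. MDA-MB231 had levels of 42.7 and 49.3 with DMSO, 33.7 with doxorubicin, 55.9 with MMS, 18.2 with etoposide and 39.4 with paclitaxel. The doxorubicin library was above its control in U2OS and below both controls in MDA-MB231, and the fitted change was 0.41 ± 0.38 (edgeR adjusted p = 0.408). The etoposide library was the lowest of the MDA-MB231 libraries, 2.31-fold below its DMSO library. No drug gave a call for TNFRSF10A over both lines.

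TNFRSF10D, the decoy receptor with a truncated death domain, had the largest increase of the 10 genes. In U2OS it was at 8.25 CPM with DMSO, 143 with doxorubicin, 90.1 with MMS, 12.7 with etoposide and 6.93 with paclitaxel. The MDA-MB231 libraries were at 116 and 124 with DMSO, 862 with doxorubicin, 314 with MMS, 229 with etoposide and 131 with paclitaxel. In each line the doxorubicin library was highest, followed by the MMS and then the etoposide library, all above the controls. TNFRSF10D rose by 3.23 ± 0.52 on the log2 scale after doxorubicin, 9.39-fold (edgeR adjusted p = 0.00154), and by 2.49 ± 0.47 after MMS, 5.62-fold (edgeR adjusted p = 0.0168), in 2 of 2 lines with each drug. After etoposide the value was 0.51 ± 0.50 (edgeR adjusted p = 0.522), and after paclitaxel -0.31 ± 0.51. The MMS call was lost without the U2OS MMS library (1.35, edgeR adjusted p = 0.567), the U2OS DMSO library (2.17, edgeR adjusted p = 0.0821) or MDA-MB231 DMSO replicate 1 (2.35, edgeR adjusted p = 0.0832), and with no filter on low counts (2.49, edgeR adjusted p = 0.0666). The doxorubicin call was kept under every left-out library.

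TNFRSF10C, the decoy anchored by a lipid and without a death domain, was low throughout. U2OS libraries held 18 to 44 reads (0.873 to 1.74 CPM) and MDA-MB231 libraries 24 to 122 reads (0.965 to 5.64 CPM). The 2 MDA-MB231 DMSO libraries differed by 0.77 on the log2 scale (43 and 52 reads), the widest gap of the 10 genes. No fitted change passed the test, with standard errors of 0.69 to 0.74 that leave room for changes of several fold. The 4 TRAIL receptor genes are paralogs on the same chromosome, 8. Reads aligned to several places were tallied in a summary row of their own, apart from the gene rows. The sources used here state nothing further on reads that match more than 1 of the 4 genes. The split between them carries that uncertainty.

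The 4 TRAIL receptor mRNAs were also compared as shares of their summed level per kb. In U2OS with DMSO, TNFRSF10B made up 90% of the sum and the decoys TNFRSF10C and TNFRSF10D together 6.73%. The decoy share in U2OS was 28.3% with doxorubicin, 14% with MMS, 8.28% with etoposide and 5.34% with paclitaxel. The share in MDA-MB231 was 28.8% and 31.8% with DMSO, 60.3% with doxorubicin, 49.1% with MMS, 49.3% with etoposide and 30.6% with paclitaxel. Most of the decoy share was TNFRSF10D, and TNFRSF10C was at most 2.04% of the sum. Where the decoy share was small, TNFRSF10C was a larger part of it. In U2OS TNFRSF10C made up 2.04% of the sum with DMSO and 1.59% with paclitaxel, beside decoy shares of 6.73% and 5.34%. The sum itself went from 49.7 CPM per kb in U2OS with DMSO to 188 with MMS and 144 with doxorubicin, and from 117 and 116 in MDA-MB231 with DMSO to 182 and 410. Doxorubicin and MMS thus had a higher decoy share than the controls in both lines. Etoposide did so in MDA-MB231, while its difference from the control in U2OS was smaller than the gap between the 2 MDA-MB231 controls, as were those of paclitaxel in both lines. These shares are descriptions, with no test, and mRNA shares are not shares of receptors on the cell.

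**Figure D3:**
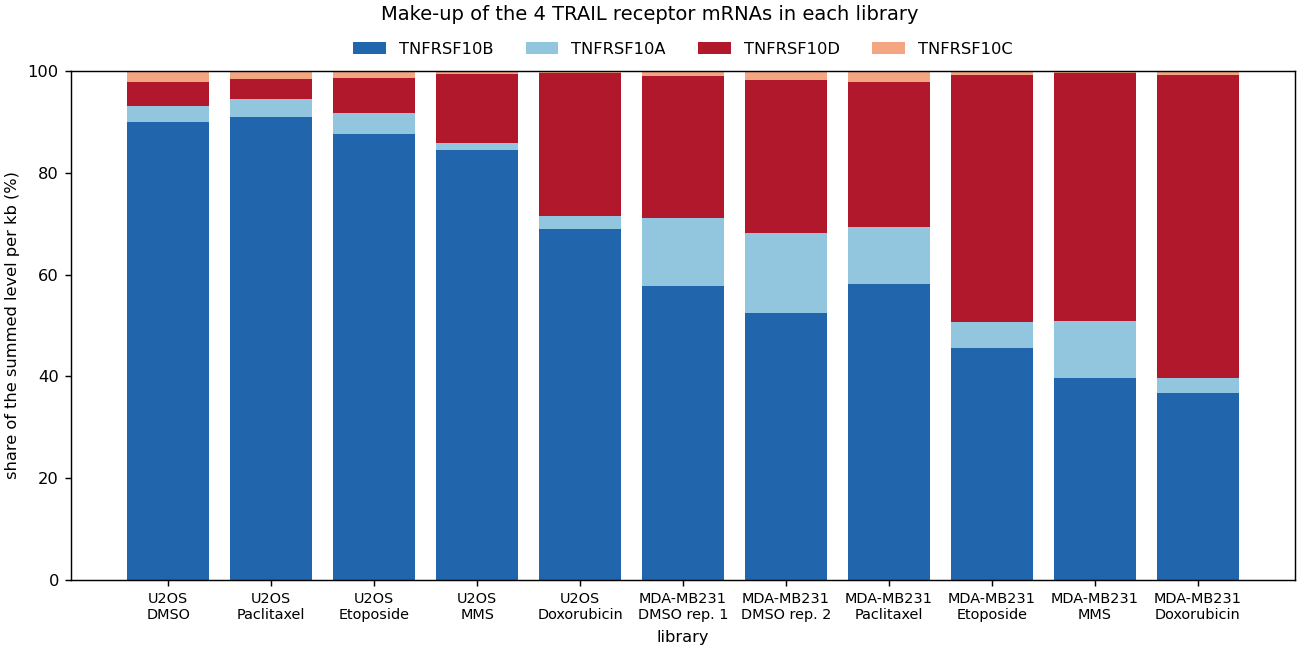
Share of each TRAIL receptor mRNA (y axis, percent of the summed CPM per kb) in each of the 11 libraries (x axis), with the death domain receptors in blue and the decoys in red. The decoy part grows from 6.73% with DMSO to 28.3% with doxorubicin in U2OS and from 28.8% and 31.8% to 60.3% in MDA-MB231.

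FAS, the receptor of Fas ligand, was higher in U2OS than in MDA-MB231 in every library. In U2OS it was at 40.3 CPM with DMSO, 45 with doxorubicin, 94.6 with MMS, 68 with etoposide and 37.9 with paclitaxel. In the MDA-MB231 libraries it was at 7.93 and 6.26 with DMSO, 6.52 with doxorubicin, 6.68 with MMS, 6.47 with etoposide and 11.8 with paclitaxel. The U2OS MMS library was 2.33-fold above its control, while the MDA-MB231 MMS library was 1.06-fold above its own, and the fitted MMS value of 0.71 ± 0.37 did not pass the test (edgeR adjusted p = 0.241). The other drugs gave 0.15 ± 0.38 (etoposide), 0.16 ± 0.38 (paclitaxel) and -0.20 ± 0.38 (doxorubicin), none called. The antisense gene FAS-AS1 had 0 to 24 reads, and whether strand was used in counting is not given in the sources used here.

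TNFRSF1A, the main TNF receptor, showed the clearest change of the 10 genes. In U2OS it was at 170 CPM with DMSO, 16.9 with doxorubicin, 141 with MMS, 113 with etoposide and 145 with paclitaxel. For MDA-MB231 the levels were 110 and 107 with DMSO, 15 with doxorubicin, 85.4 with MMS, 74.7 with etoposide and 119 with paclitaxel. The doxorubicin libraries of the 2 lines were alike and far below all others. TNFRSF1A fell by 3.13 ± 0.18 on the log2 scale after doxorubicin, 8.73-fold (edgeR adjusted p = 8.45e-05), lower in 2 of 2 lines, and kept this call under all 16 alternatives, over which the value was -3.35 to -2.88. It also fell after etoposide, by 0.60 ± 0.16 (edgeR adjusted p = 0.0353), lower in 2 of 2 lines. The etoposide call was lost, at -0.72 to -0.50 and edgeR adjusted p of 0.0568 to 0.186, when any 1 library was left out except the 2 doxorubicin libraries. After MMS the value was -0.24 ± 0.16 and after paclitaxel -0.08 ± 0.16.

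TNFRSF12A, the receptor of TWEAK, was at 248 CPM in U2OS with DMSO, 65.1 with doxorubicin, 450 with MMS, 277 with etoposide and 307 with paclitaxel. In MDA-MB231 it was at 147 and 161 with DMSO, 70.5 with doxorubicin, 178 with MMS, 202 with etoposide and 141 with paclitaxel. The doxorubicin library was the lowest of each line, and the MMS library was above the controls in both. TNFRSF12A fell by 1.57 ± 0.29 on the log2 scale after doxorubicin, 2.97-fold (edgeR adjusted p = 0.00274), in 2 of 2 lines. After MMS the value was 0.60 ± 0.26 (edgeR adjusted p = 0.168).

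FADD, the adaptor that links receptors to procaspase 8, was at 60.5 CPM in U2OS with DMSO, 18.1 with doxorubicin, 31.6 with MMS, 44 with etoposide and 56 with paclitaxel. MDA-MB231 had levels of 91.4 and 84.4 with DMSO, 12.5 with doxorubicin, 68 with MMS, 59.2 with etoposide and 87 with paclitaxel. All 6 libraries of the damage drugs lay below the controls of their line, the doxorubicin libraries lowest. FADD fell by 2.15 ± 0.31 on the log2 scale after doxorubicin, 4.43-fold (edgeR adjusted p = 8.62e-04), in 2 of 2 lines, and kept the call under all 16 alternatives (-2.72 to -1.71). The MMS value of -0.73 ± 0.29 was not called (edgeR adjusted p = 0.138), but was called without the MDA-MB231 doxorubicin library (-0.64, edgeR adjusted p = 0.0411), without the U2OS doxorubicin library (-0.63, edgeR adjusted p = 0.0427) and without both (-0.65, edgeR adjusted p = 0.0462). After etoposide the value was -0.45 ± 0.28.

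CASP8, the initiator caspase of the complex, was at 36.3 CPM in U2OS with DMSO, 22.2 with doxorubicin, 32 with MMS, 34.9 with etoposide and 32.1 with paclitaxel. The MDA-MB231 libraries were at 26.7 and 27.9 with DMSO, 13.9 with doxorubicin, 37.1 with MMS, 28.4 with etoposide and 24.4 with paclitaxel. The doxorubicin library was the lowest of each line, and the MDA-MB231 MMS library was the highest of its own. CASP8 fell by 0.74 ± 0.22 on the log2 scale after doxorubicin, 1.67-fold (edgeR adjusted p = 0.022), in 2 of 2 lines. That call was lost without MDA-MB231 DMSO replicate 1 (-0.67, edgeR adjusted p = 0.121), MDA-MB231 doxorubicin (-0.64, edgeR adjusted p = 0.0693) or U2OS DMSO (-0.66, edgeR adjusted p = 0.114).

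CFLAR, the inhibitor c-FLIP, was at 34.9 CPM in U2OS with DMSO, 45.2 with doxorubicin, 21.6 with MMS, 33.9 with etoposide and 37.5 with paclitaxel. Its level in MDA-MB231 was 60.3 and 50 with DMSO, 66.2 with doxorubicin, 45.8 with MMS, 47.4 with etoposide and 65.6 with paclitaxel. The MMS libraries were the lowest of each line and the doxorubicin libraries the highest, but no drug gave a call: the values were 0.34 ± 0.20 after doxorubicin (edgeR adjusted p = 0.194), -0.47 ± 0.20 after MMS (edgeR adjusted p = 0.164), -0.11 ± 0.20 after etoposide and 0.20 ± 0.20 after paclitaxel. The ratio of CFLAR to CASP8 per kb, of use only between libraries because of the length given to CFLAR, was 0.183 in U2OS with DMSO, 0.389 with doxorubicin and 0.129 with MMS. In the MDA-MB231 libraries it was 0.43 and 0.342 with DMSO, 0.909 with doxorubicin and 0.236 with MMS. It was thus highest with doxorubicin and lowest with MMS in each line, and was not tested. CFLAR-AS1, the antisense gene, had 3 to 43 reads.

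The drugs were then set against each other in the same fit. Between MMS and doxorubicin 5 of the 10 genes differed, against 41% of all genes: TNFRSF1A was higher with MMS by 2.89 ± 0.20 on the log2 scale (edgeR adjusted p = 6.98e-05), TNFRSF12A by 2.17 ± 0.33 (adjusted p = 0.00103), FADD by 1.41 ± 0.34 (adjusted p = 0.0103) and CASP8 by 0.82 ± 0.25 (adjusted p = 0.0282). CFLAR was lower with MMS than with doxorubicin by 0.81 ± 0.24 (edgeR adjusted p = 0.0242). TNFRSF10B and TNFRSF10D were called with both drugs and were not called between them (0.22 ± 0.33 and -0.74 ± 0.52). The CFLAR difference was lost without the U2OS MMS (-0.38, edgeR adjusted p = 0.458) or U2OS doxorubicin library (-0.73, edgeR adjusted p = 0.0676), and that of TNFRSF12A without the U2OS MMS library (1.61, edgeR adjusted p = 0.0652). The CASP8 difference was lost, at edgeR adjusted p of 0.0523 to 0.0813, without any 1 of the 3 DMSO, the 2 MMS and the 2 paclitaxel libraries. For TNFRSF10B the difference was called higher with MMS without MDA-MB231 DMSO replicate 2 (0.71) or MDA-MB231 MMS (0.66), and called lower without U2OS MMS (-0.91, edgeR adjusted p = 0.0437).

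Doxorubicin and etoposide, both topoisomerase II drugs, differed in 6 of the 10 genes, against 45.1% of all genes. TNFRSF10B (1.22 ± 0.31, edgeR adjusted p = 0.0103) and TNFRSF10D (2.72 ± 0.52, edgeR adjusted p = 0.00308) were higher with doxorubicin. TNFRSF1A (-2.53 ± 0.18, edgeR adjusted p = 7.91e-05), TNFRSF12A (-1.76 ± 0.29), FADD (-1.70 ± 0.31) and CASP8 (-0.83 ± 0.22) were lower with it. The TNFRSF10B difference was lost without either etoposide library (1.20 and 1.25) or the MDA-MB231 doxorubicin library (1.05), and the CASP8 difference without the MDA-MB231 etoposide library (-0.76, edgeR adjusted p = 0.067). Against etoposide, MMS differed in TNFRSF10B alone of the 10 genes (1.45 ± 0.33, edgeR adjusted p = 0.0311), with 8.68% of all genes called, and TNFRSF10D was just outside the call at 1.98 ± 0.55 (edgeR adjusted p = 0.0568). Against paclitaxel, MMS differed in TNFRSF10D alone in edgeR (2.80 ± 0.57, edgeR adjusted p = 0.0275), with 7.21% of all genes called, and TNFRSF10B was just outside at 1.25 ± 0.33 (edgeR adjusted p = 0.0539). DESeq2 called both of these near misses, TNFRSF10D against etoposide (2.02, DESeq2 adjusted p = 0.00379) and TNFRSF10B against paclitaxel (1.28, DESeq2 adjusted p = 0.00942), and also CFLAR against paclitaxel (-0.65, DESeq2 adjusted p = 0.0452; -0.66 with edgeR adjusted p = 0.121). Without the U2OS MMS library these became 0.31 for TNFRSF10B against etoposide and 1.34 for TNFRSF10D against paclitaxel, neither called. The first was also lost without either library of doxorubicin, etoposide or paclitaxel or without MDA-MB231 DMSO replicate 1 (1.42 to 1.53), and the second without either paclitaxel library (3.26 and 2.31) or MDA-MB231 DMSO replicate 1 (2.94) and with no filter on low counts (2.80, edgeR adjusted p = 0.0946). In the other direction, TNFRSF10D was called between MMS and etoposide without U2OS doxorubicin (2.16), and without the MMS library of MDA-MB231 or its DMSO replicate 2 (2.55 each), and TNFRSF10B between MMS and paclitaxel without either of the last 2 (1.69 each).

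Within a line each drug has 1 library against 1 DMSO library, so the ratios below have no test, and the 95% intervals (exact binomial) cover counting error only. A gene passed at a ratio of 2-fold or beyond, provided that 1 of its 2 levels reached 5 CPM. With doxorubicin 6 of the 10 genes passed 2-fold in U2OS, 3 up and 3 down (32.5% of all genes passed), and 6 in MDA-MB231, 3 up and 3 down (27.1%). TNFRSF10D was 16.4-fold higher in U2OS (log2 ratio 4.04, interval 3.89 to 4.35) and 7.43-fold in MDA-MB231 (2.89, interval 2.84 to 2.96), and TNFRSF10B was 2.22-fold and 2.23-fold higher. TNFRSF1A was 9.77-fold lower in U2OS and 7.18-fold in MDA-MB231, FADD 3.27-fold and 7.08-fold lower, and TNFRSF12A 3.78-fold and 2.08-fold lower. The third gene up was TNFRSF10A in U2OS (2.29-fold) and TNFRSF10C in MDA-MB231 (43 against 121 reads). Scaled to the total gene count, the U2OS doxorubicin ratios of TNFRSF10A (0.92) and TNFRSF10B (0.86) fell short of 2-fold, and TNFRSF10C in MDA-MB231 did so against the other DMSO library (0.71). CASP8 had log2 ratios of -0.70 and -0.92.

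With MMS 3 of the 10 genes passed 2-fold in U2OS, where 18.6% of all genes did: TNFRSF10D (10.4-fold; log2 ratio 3.37, interval 3.22 to 3.69), TNFRSF10B (3.54-fold) and FAS (2.33-fold), all higher. In MDA-MB231 TNFRSF10D alone passed (2.54-fold), with 6.1% of all genes past 2-fold, and TNFRSF10B was 1.19-fold higher (log2 ratio 0.25, interval 0.19 to 0.30). With etoposide no gene of the 10 passed in U2OS (13.6% of all genes) and TNFRSF10A alone in MDA-MB231, where it was lower (19.8% of all genes); TNFRSF10D was 1.98-fold higher there, and just past 2-fold when scaled to the total gene count (1.07). With paclitaxel none of the 10 passed in either line, where 0.0976% of all genes did in U2OS and 0.471% in MDA-MB231. TNFRSF10C was past 2-fold in MDA-MB231 but under the minimum of 5 CPM with 2 drugs. It was 2.19-fold higher with paclitaxel (43 against 122 reads) and 2.56-fold lower with MMS (52 against 24 reads). Between the 2 MDA-MB231 DMSO libraries 1.79% of all genes passed 2-fold and none of the 10.

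**Figure D4:**
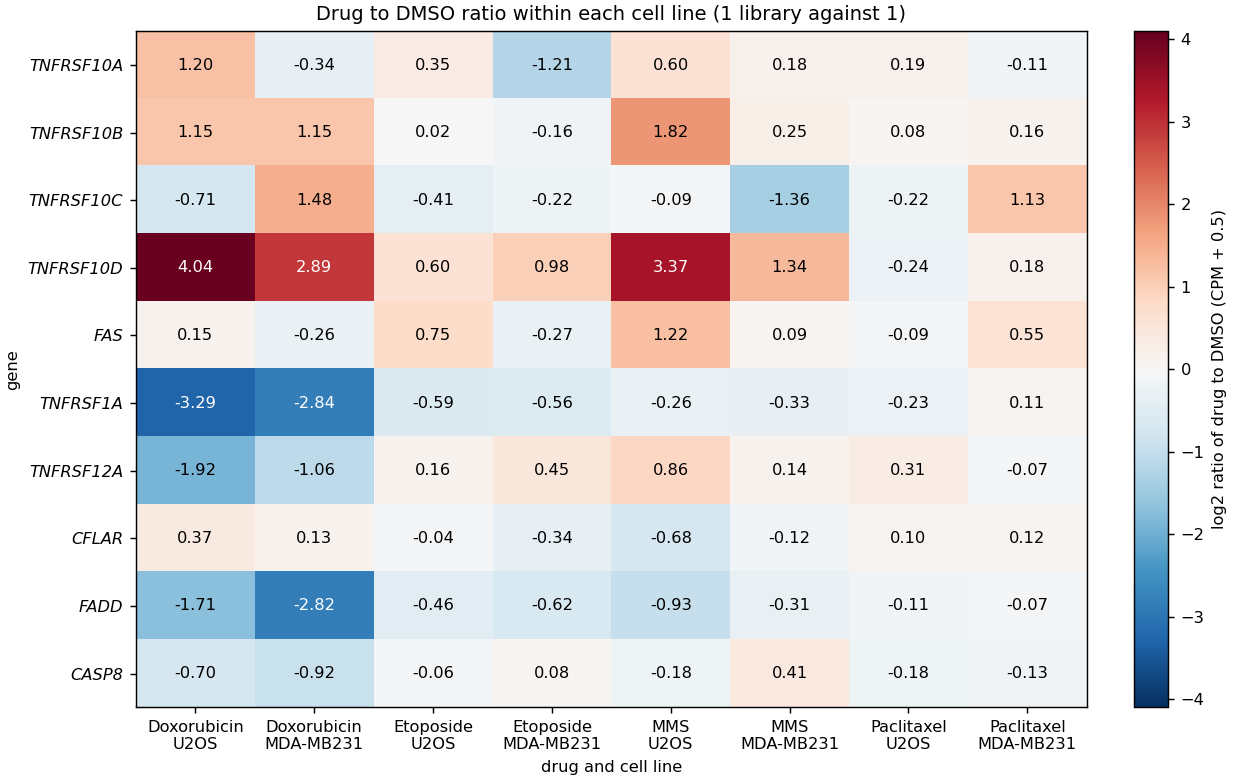
Log2 ratio of drug to DMSO (colour and number; CPM + 0.5) for each of the 10 genes (rows) with each drug in each line (columns), 1 library against 1. TNFRSF10D is the darkest red, at 4.04 and 2.89 with doxorubicin and 3.37 and 1.34 with MMS, and TNFRSF1A the darkest blue, at -3.29 and -2.84 with doxorubicin.

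Whether the lines responded differently was tested with a term for treated U2OS cells, averaged over the 4 drugs. It called none of the 10 genes and no other gene (0%) in edgeR, where 210 genes had an unadjusted p under 0.05, while DESeq2 called 2 genes, none of them among the 10, and had 178 at an unadjusted p under 0.05. The values for the 10 genes ran from -0.32 ± 1.13 for TNFRSF10C to 0.95 ± 0.53 for TNFRSF10A, and that of TNFRSF10B was 0.62 ± 0.42. No drug was repeated within a line, so this term could be judged only against the remaining differences in response between the lines. That limit also holds for the terms for 1 drug below. A lack of calls therefore does not show that the lines responded alike. A term for U2OS cells under 1 drug alone, added after the data had been seen, was fitted for each drug in turn, with the single library assumed to vary like the others. In edgeR it called none of the 10 genes and no other gene (0%) for any of the 4 drugs, with 2467 genes at an unadjusted p under 0.05 for doxorubicin, 1347 for etoposide, 830 for MMS and 136 for paclitaxel. DESeq2 called 570 genes for doxorubicin, 196 for etoposide, 93 for MMS and 0 for paclitaxel, so the call depended on the tool. The MMS response of TNFRSF10B was larger in U2OS by 1.57 ± 0.24 on the log2 scale in edgeR (edgeR adjusted p = 0.384, unadjusted p = 2.74e-04) and by 1.62 ± 0.26 in DESeq2, which called it (DESeq2 adjusted p = 1.16e-06). The doxorubicin response of FADD was less negative in U2OS by 1.15 ± 0.31 in edgeR (edgeR adjusted p = 0.178) and by 1.13 ± 0.36 in DESeq2, which called it as well (DESeq2 adjusted p = 0.0406). For FAS the MMS term was 1.04 ± 0.73 in edgeR (edgeR adjusted p = 1), and neither tool called it.

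At equal treatment, 7 of the 10 genes differed between U2OS and MDA-MB231, against 59.9% of all genes. FAS was higher in U2OS by 2.94 ± 0.27 on the log2 scale, 7.69-fold (edgeR adjusted p = 1.76e-05), TNFRSF12A by 0.75 ± 0.18 (edgeR adjusted p = 0.00612) and TNFRSF1A by 0.54 ± 0.11 (edgeR adjusted p = 0.00188). TNFRSF10D was lower in U2OS by 3.23 ± 0.35, 9.38-fold (edgeR adjusted p = 5.75e-05), TNFRSF10A by 2.69 ± 0.28, 6.43-fold (edgeR adjusted p = 3.42e-05), CFLAR by 0.72 ± 0.13 (edgeR adjusted p = 0.00139) and FADD by 0.52 ± 0.20 (edgeR adjusted p = 0.0448). TNFRSF10B (-0.10 ± 0.20), TNFRSF10C (-0.76 ± 0.47) and CASP8 (0.26 ± 0.14) were not called. U2OS and MDA-MB231 libraries did not overlap for FAS or TNFRSF10A. For CFLAR they nearly met, with 45.2 CPM the highest in U2OS and 45.8 the lowest in MDA-MB231. For TNFRSF10D the U2OS doxorubicin library (143 CPM) reached above the MDA-MB231 controls. The share of all genes without such overlap was not counted, so whether a lack of overlap is unusual was not tested. The TNFRSF12A difference was lost without either MMS library (0.54 each), and that of FADD, at -0.51 to -0.31, without any 1 of the 2 MMS, 2 etoposide and 2 paclitaxel libraries, U2OS DMSO or MDA-MB231 DMSO replicate 1. TNFRSF10B was called lower in U2OS without either MMS library (-0.50 each) and higher without MDA-MB231 DMSO replicate 2 (0.30, edgeR adjusted p = 0.038).

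**Figure D5:**
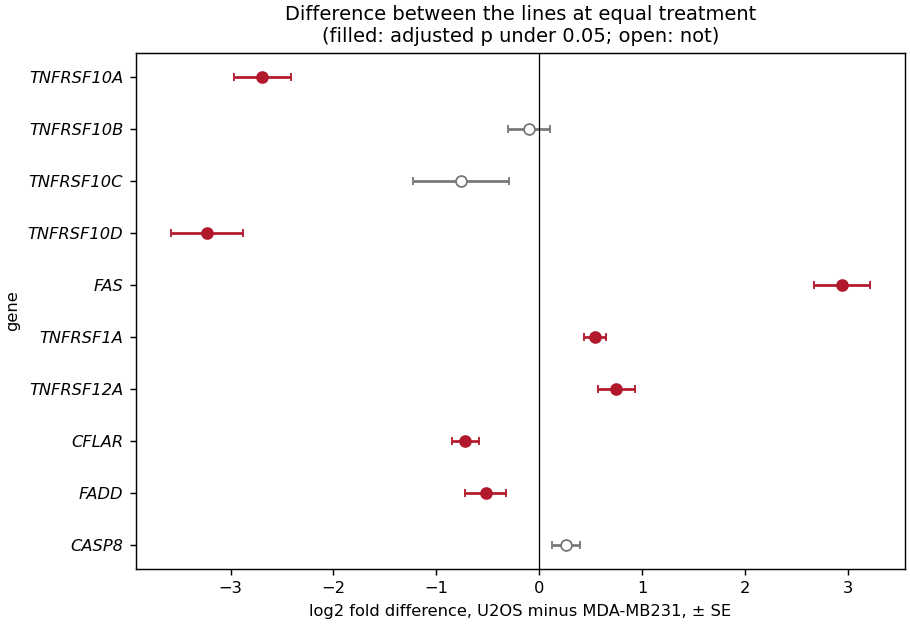
Fitted log2 difference between U2OS and MDA-MB231 (x axis, positive where U2OS is higher, ± SE) at equal treatment for each of the 10 genes (y axis), filled where the edgeR adjusted p was under 0.05. FAS lies at 2.94, and TNFRSF10A at -2.69 and TNFRSF10D at -3.23 on the other side.

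The ligands were scarce or line-specific. FASLG, the Fas ligand, had 0 to 1 reads in every library. TNFSF10, which encodes TRAIL, had 1 to 3 reads in the U2OS libraries and 145 to 1600 reads in MDA-MB231, where it was at 26.8 and 18.3 CPM with DMSO, 56.4 with paclitaxel, 21 with doxorubicin, 13.7 with etoposide and 5.83 with MMS. Of the 6 of 7 listed ligand genes that could be tested, MMS called TNFSF10 lower (-1.62 ± 0.35, edgeR adjusted p = 0.0246), and the U2OS counts were too low to bear on that value. Doxorubicin called LTA, which encodes lymphotoxin alpha, higher (5.08 ± 0.59, edgeR adjusted p = 3.98e-04): U2OS had 1 read with DMSO and 73 with doxorubicin, and MDA-MB231 had 4 and 107, counts so low that the fitted fold depends on the prior count. Etoposide called TNFSF12, which encodes TWEAK (-2.15 ± 0.49), and TNFSF15 (-1.79 ± 0.43) lower, and the U2OS etoposide library held 3 reads of TNFSF12. 5 of the 6 ligands were lower in U2OS than in MDA-MB231, led by TNFSF10, TNFSF15 and TNFSF12, where 27.1% of all genes were lower. Over all genes, the drugs called 41.7% (doxorubicin), 16.6% (etoposide), 10.1% (MMS) and 0% (paclitaxel). The medians of the list were 0.49 after doxorubicin, -1.26 after etoposide, -0.83 after MMS and 0.27 after paclitaxel.

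Of 9 other TNF receptors tested (10 listed), 1 was called after doxorubicin, 2 after etoposide, 3 after MMS and 0 after paclitaxel, where the shares over all genes were 41.7%, 16.6%, 10.1% and 0%. CD40 rose after doxorubicin (1.14 ± 0.17, edgeR adjusted p = 0.00106). Its U2OS level was 64.8 CPM with DMSO and 147 with doxorubicin, and its MDA-MB231 levels were 26.7 and 53. TNFRSF11B, which encodes osteoprotegerin, a secreted receptor that also binds TRAIL, fell after etoposide (-2.64 ± 0.48, edgeR adjusted p = 0.0109) and MMS (-2.07 ± 0.51, edgeR adjusted p = 0.036). Its level was 34.5 CPM in U2OS with DMSO, 4.3 with etoposide and 3.32 with MMS, and in MDA-MB231 18.7 and 29.2 with DMSO, 2.67 with etoposide and 16.3 with MMS, so the MMS library was far below the control in U2OS and below both controls in MDA-MB231, by more against replicate 2, the control in its block. TNFRSF21, known as DR6, fell after both drugs too (-1.19 ± 0.26 and -1.05 ± 0.25), and TNFRSF19 fell after MMS (-1.90 ± 0.46). The list's median was 0.18 after doxorubicin, 0.04 after etoposide and -0.34 after MMS.

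Of 18 adaptors and ubiquitin enzymes of the receptor complexes tested (19 symbols listed, of which FAM105B is the older name of OTULIN), doxorubicin called 3 higher and 7 lower, against 41.7% of all genes called. TRAF2, which links TNF receptors to NF-kB, fell by 1.91 ± 0.22 on the log2 scale (edgeR adjusted p = 3.64e-04), being at 52.6 CPM with DMSO and 12.6 with doxorubicin in U2OS, and at 56.4 and 16.4 in MDA-MB231. BIRC3, which encodes the ubiquitin ligase cIAP2, fell by 2.05 ± 0.38 (edgeR adjusted p = 0.00273), and FAM105B, a deubiquitinase of linear chains, fell by 1.87 ± 0.20 (edgeR adjusted p = 3.02e-04). BIRC3 fell after MMS as well (-1.86 ± 0.37, edgeR adjusted p = 0.0199), being at 33.5 CPM with DMSO and 10.4 with MMS in U2OS, and at 243 and 75.6 in MDA-MB231. MMS called 4 higher and 2 lower in all, against 10.1% of all genes. Among them were CYLD, a deubiquitinase (1.12 ± 0.25), and RBCK1, which encodes HOIL-1 of the linear ubiquitin ligase (0.81 ± 0.22). The CYLD rise was not particular to MMS. In U2OS CYLD was at 53.7 CPM with DMSO, 241 with doxorubicin, 117 with etoposide and 181 with MMS. In MDA-MB231 it was at 77.1 and 88.3 with DMSO, 250 with doxorubicin, 146 with etoposide and 117 with MMS. Etoposide called RIPK1 (0.63 ± 0.15) and RNF31 (0.65 ± 0.17) higher and FAF1, which encodes a Fas-associated factor (-1.02 ± 0.17), lower, and 3 of 18 was close to its 16.6% of all genes. RIPK1, the kinase of the TNFRSF1A complex, was at 58 CPM with DMSO and 92.2 with etoposide in U2OS, and at 83.7 and 126 in MDA-MB231. Paclitaxel called none of the 18. The list's median was -0.38 after doxorubicin, 0.01 after etoposide and 0.07 after MMS.

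Of 16 caspases, caspase substrates and inhibitors tested (17 listed), doxorubicin called 3 higher and 4 lower, etoposide 1 and 2, MMS 1 and 1, and paclitaxel 0. These counts were close to the shares over all genes, 41.7%, 16.6%, 10.1% and 0%. CASP2 fell after doxorubicin by 2.13 ± 0.19 on the log2 scale (edgeR adjusted p = 1.60e-04), being at 45.8 CPM with DMSO and 12 with doxorubicin in U2OS, and at 39.8 and 8.15 in MDA-MB231. DFFB, the nuclease that cuts DNA in apoptosis, fell by 2.44 ± 0.33 (edgeR adjusted p = 6.89e-04), and XIAP, a direct caspase inhibitor, by 0.78 ± 0.17 (edgeR adjusted p = 0.00573). After etoposide CASP9, the initiator caspase of the mitochondrial pathway, rose by 1.46 ± 0.30 (edgeR adjusted p = 0.0154), and BID, which caspase 8 cuts to reach the mitochondria, fell by 1.32 ± 0.19 (edgeR adjusted p = 0.00543). LMNA, which encodes lamin A, fell after etoposide (-0.69 ± 0.14) and MMS (-0.81 ± 0.14), and PEA15, a death effector domain protein, rose after MMS (0.66 ± 0.14, edgeR adjusted p = 0.022). The list's median was -0.53 after doxorubicin, -0.04 after etoposide and 0.11 after MMS. 8 of the 16 were lower in U2OS than in MDA-MB231 and 0 higher, where 59.9% of all genes were called and 27.1% were lower, with CASP10, the other caspase recruited by FADD, at -2.14 ± 0.24.

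For 4 of the genes the most similar patterns over the 8 drug to DMSO ratios were sought among 6401 genes with a level of at least 10 CPM in some library and a change of 2-fold in some pair, and Pearson's r is a description, since the 8 ratios share 3 DMSO libraries. TNFRSF10B was most like FKBP9 (r = 0.976), ASS1 (0.942) and PPAPDC1B (0.936), each high with doxorubicin in both lines and with MMS in U2OS. TNFRSF12A was most like MMADHC (0.986), ANKRD1 (0.983) and MIER2 (0.982), low with doxorubicin and higher with MMS in U2OS, where ANKRD1 had log2 ratios of -3.66 and 1.14. The genes most like FAS included CYP2U1 (0.876) and TRAF1 (0.860). TRAF1, itself a TNF receptor adaptor, had log2 ratios of 3.06 with etoposide and 3.01 with MMS in U2OS, from 3.02 CPM with DMSO. In MDA-MB231 its ratios were -0.77 with etoposide and 0.01 with MMS. CFLAR was most like MARVELD1 (0.988), ST6GAL1 (0.976) and CACNA2D1 (0.971), whose lowest ratio was that of MMS in U2OS, at -1.58, -1.53 and -1.92.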

How the data were processed

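Total RNA of 2 cell lines was sequenced in 11 libraries, and the labels do not say whether these came from separate cultures. The deposited files hold 1 whole-number read count per gene symbol. Per the submitters' processing notes the tools were CASAVA 1.8.2, TopHat2 2.0.8b and HTSeq, and the notes name the hg19 and mm9 builds; neither the strand setting nor the handling of multi-aligned reads is stated there. The 5 summary rows at the end of each deposited count file were left out of library sizes; they held multi-aligned reads (28.4% to 37.5%), reads in no feature (7.16% to 9.7%) and ambiguous reads (1.03% to 1.19%). The 10 genes and all gene lists were chosen with earlier results of these data known.

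Counts were tested with edgeR 4.0.16 in R 4.3.3 (TMM, filterByExpr with a minimum count of 10, robust quasi-likelihood fit, Benjamini-Hochberg adjustment over 16530 genes, threshold 0.05). The model had 4 drug terms and a block of 3 levels: U2OS and the MDA-MB231 libraries without and with a time in the title. The pairing comes from the cell line; 4 residual degrees of freedom remained (3 with the term for treated U2OS cells). Within a line, log2 ratios of CPM + 0.5 were taken. Values per kb used GENCODE v29 exon lengths (GRCh38); promoters came from RefSeq. Of each gene list, up to 3 called genes per comparison with the largest change were named. For 4 genes the 3 most similar patterns were sought, of which 1 result is not reported here. Alternatives were DESeq2 1.42.0, its size factors in edgeR, no filter, other blocks, each library left out in turn, other scalings, offsets, minimum levels and DMSO libraries, and, chosen after seeing the data, both doxorubicin libraries left out and a line term for 1 drug alone. The fits were first run on simulated counts, and the outcome is not reported here. Depth was 16774156 to 31588683 gene reads per library, and counting intervals (95%, Clopper-Pearson) cover counting error only.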

Additional observations from a re-analysis of the deposited data

How the results depend on the processing

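Most counts over all genes moved with the libraries used, while no called member changed direction under any alternative run. With 1 library left out in turn, genes called numbered 4054 to 7057 for doxorubicin, 70 to 3709 for etoposide, 0 to 2537 for MMS, 1884 to 6884 for MMS against doxorubicin, 2 to 2369 for MMS against etoposide, 0 to 1874 for MMS against paclitaxel, and 0 to 1 for the term for treated U2OS cells, which could not be fitted without U2OS DMSO. The lowest of these came without MDA-MB231 DMSO replicate 1 (doxorubicin, etoposide) or without U2OS MMS (the 4 counts with MMS). Where a comparison lost 1 of its 2 libraries, the remaining one was assumed to vary like the others. DESeq2 called 2940 genes for MMS, 2800 for MMS against etoposide, 2550 for MMS against paclitaxel and 2 for the term for treated U2OS cells. With the line alone as block MMS against etoposide had 2410 calls. With no replicate block (no pairing by line) 1828 genes were called for doxorubicin, 2024 for MMS against doxorubicin, 1764 for doxorubicin against etoposide, and 0 each for etoposide, MMS, MMS against etoposide and MMS against paclitaxel, at which TNFRSF10B, TNFRSF10D, TNFRSF12A and CASP8 lost their doxorubicin calls and TNFRSF1A and FADD kept theirs. Without both doxorubicin libraries, an alternative chosen after seeing the data, MMS against etoposide had 2308 calls and MMS against paclitaxel 1814, and TNFRSF10B lost its MMS call (edgeR adjusted p = 0.0507), as it did with the line alone as block (0.0797).

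The term for U2OS cells under 1 drug alone, added after seeing the data, had 0 calls in edgeR for each drug and, in DESeq2, 570 for doxorubicin, 196 for etoposide, 93 for MMS and 0 for paclitaxel.

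For TNFRSF10B, not called in either comparison with all libraries, the difference between MMS and doxorubicin ran from -0.91 to 0.71 over the left-out libraries, called at both ends, and the difference between the lines from -0.50 to 0.30, also called at both ends. Of 1152 values of the members that were not called, over all alternatives, 110 changed sign. Within lines, 56 of 200 values of the members moved by more than their counting interval under another scaling, offset or DMSO library, and 0 of those past 2-fold changed direction. Scaled to the total gene count, the 2-fold genes of doxorubicin in U2OS split into 855 higher and 3093 lower, against 1642 and 2172, with the median gene at -0.33 in place of -0.03, and those of etoposide in U2OS into 1096 and 615, against 709 and 868, with the median at 0.16 in place of -0.03. Paclitaxel in MDA-MB231 had 399 genes past 2-fold against the other DMSO library and 96 with a minimum of 1 CPM, in place of 51, and in U2OS 26 with that minimum, in place of 11. The causes of these shifts were not tested.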
